A study of Mus musculus with 8 samples.

Results

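The senescence-associated secretory phenotype is the set of secreted proteins by which senescent cells act on their surroundings. The 49 genes described here are 10 cytokines, 13 chemokines, 10 genes of the extracellular protease system, 11 growth factors and related ligands, and 5 surface receptors and adhesion molecules of this kind. They were listed by name, with earlier results of these data known, and all 49 were found among the 53012 Ensembl genes of the count table. RNA-seq was performed on islets of 4 βIgf1r mice (CTRL in the labels) and 4 βIgf1rKD mice (KD), which the methods describe as aged. Both groups carried Igf1r flox/flox alleles, in which an exon of Igf1r is flanked by loxP sites. The βIgf1rKD mice were Ins1-CreERT2+/- and received daily tamoxifen injections, while the βIgf1r mice were Ins1-CreERT2-/- and received corn oil, so loss of Igf1r, Cre and tamoxifen cannot be told apart. The methods describe the Cre as driven by a rat insulin promoter, which confines recombination to β-cells, and islets were taken some days after the last injection. Males and females were used in both groups without being marked by mouse, and the islets of each animal formed 1 library.

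In senescent cells the cytokines and chemokines of this phenotype are induced largely through NF-κB and C/EBPβ, with IL-1α acting upstream on its own receptor and on neighbouring cells. Chemokines attract leukocytes. Matrix metalloproteinases and plasminogen activators degrade the extracellular matrix and are held in check by TIMPs and serpins, and growth factors act on epithelial, endothelial and stromal neighbours. In the islet these genes are expressed by different cells, so that macrophages, endothelial cells, pericytes and fibroblasts contribute to a bulk measurement beside the β-cells. In bulk samples fewer cells of a type and less RNA per cell cannot be told apart.

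Total counts ranged from 21633925 to 42391106 per mouse, and the 49 genes together took 0.0214% to 0.0340% of a library. Mitochondrial genes took 0.492% to 3.87% of the counts. Igf1r, the targeted gene, averaged 53.6 CPM (counts scaled to library size; SD 7.21, n = 4) in βIgf1r islets. In βIgf1rKD islets it averaged 50.7 CPM (SD 4.996, n = 4), a difference within the spread of single mice (p = 0.543 by an exact permutation test, two-sided). Gene-level counts do not separate the floxed exon. β-cell markers were abundant in every library, at a summed level of 108550 to 159510 CPM over 8 genes. Acinar markers, 12 genes for digestive enzymes and their regulators, summed to 14923 to 151440 CPM in βIgf1r and 33154 to 185610 CPM in βIgf1rKD mice. A pair of βIgf1rKD libraries stood apart for the genes described here. Of the 30 members with enough counts to be tested, 13 were highest in M149 and 14 were lowest in M146, while over all tested genes M149 was highest for 16.2% and M146 lowest for 15.9%. Values without M149 or M146 are given for the role medians and for the members that these mice set. Xist, which is transcribed in females, had a log2 CPM of 8.08 to 8.68 in M151, M145, M146 and M150 and of 0.37 to 2.76 in the other mice, so that the groups were unequal in it. M149 was the only βIgf1rKD mouse low in Xist, and M151 the only βIgf1r mouse high in it. For results that rest on either mouse, the library and the sex of the mouse therefore cannot be told apart. The part of Xist in the results was not tested beyond a fit with Xist as a covariate.

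Promoter sequences are shown for a few members on which the results turn, namely Csf1 and Inhba, which differed between the groups at an unadjusted p, Mmp14 and Timp1, which varied together among the βIgf1rKD mice, and Cxcl1 as a chemokine that was barely detected. They are the 250 bases before the RefSeq start, on GRCm38.p6, written 5′ to 3′ along the gene's strand. Capitals mark matches, on either strand, to 4 motifs: a form of the κB site of 10 bases (the longest runs of capitals in Csf1 and the pair in Cxcl1), TGANTCA (the AP-1 site), GGGCGG (the GC box) and TATAAA. None of these matches overlaps another in the 5 sequences.
Csf1 (chr3:107760470-107760719, minus strand): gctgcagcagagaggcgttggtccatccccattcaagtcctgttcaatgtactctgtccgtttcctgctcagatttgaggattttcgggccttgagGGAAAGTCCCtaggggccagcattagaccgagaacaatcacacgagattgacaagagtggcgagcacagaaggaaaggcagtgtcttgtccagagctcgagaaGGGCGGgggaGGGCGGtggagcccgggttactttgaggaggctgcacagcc
Cxcl1 (chr5:90890995-90891244, plus strand): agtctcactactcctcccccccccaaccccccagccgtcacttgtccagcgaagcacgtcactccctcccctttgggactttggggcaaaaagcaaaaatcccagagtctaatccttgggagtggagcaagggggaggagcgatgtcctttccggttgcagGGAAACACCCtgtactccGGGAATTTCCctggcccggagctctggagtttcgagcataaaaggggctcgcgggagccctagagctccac
Inhba (chr13:16011601-16011850, plus strand): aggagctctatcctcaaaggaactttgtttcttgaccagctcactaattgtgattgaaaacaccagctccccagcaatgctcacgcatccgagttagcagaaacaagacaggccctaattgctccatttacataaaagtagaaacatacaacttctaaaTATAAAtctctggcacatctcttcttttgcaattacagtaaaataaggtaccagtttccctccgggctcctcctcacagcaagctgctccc
Mmp14 (chr14:54431348-54431597, plus strand): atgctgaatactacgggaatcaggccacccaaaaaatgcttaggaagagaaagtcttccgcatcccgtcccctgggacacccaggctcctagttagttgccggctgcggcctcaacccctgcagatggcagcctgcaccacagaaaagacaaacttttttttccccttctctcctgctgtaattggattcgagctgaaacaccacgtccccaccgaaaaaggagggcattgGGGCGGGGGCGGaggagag
Timp1 (chrX:20869916-20870165, plus strand): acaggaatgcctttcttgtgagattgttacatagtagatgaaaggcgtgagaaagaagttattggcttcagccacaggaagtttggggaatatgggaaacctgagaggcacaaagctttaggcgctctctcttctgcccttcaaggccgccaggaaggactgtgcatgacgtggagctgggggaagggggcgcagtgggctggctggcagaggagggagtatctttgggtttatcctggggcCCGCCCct
Of the 49 members 35 had a window in the RefSeq table. The κB motif was found in 5 of these 35, or 14.3%, and in 1.65% of the 27025 genes with a window. The 5 were Csf1, Cxcl1, Cxcl2, Ccl20 and Il6, and only Csf1 among them had enough counts to be tested. TGANTCA was found in 6 of the 35 and in 7.82% of all genes, GGGCGG in 19 and in 35.4%, and TATAAA in 10 and in 14.3%. A match describes these letters only.

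Against this background the groups were compared gene by gene with edgeR's quasi-likelihood test over 15474 genes. The filter on low counts passed 30 of the 49 members. Of these 18 had a higher and 12 a lower level in βIgf1rKD islets, with log2 fold changes from -1.12 to 0.93 and a median of 0.12, while 52.3% of all tested genes lay above 0 and their median was 0.01. After Benjamini-Hochberg adjustment over all genes 0 members had p under 0.05, the same as the background of 0%, and DESeq2 and limma-voom also gave 0 members. At an unadjusted p under 0.05, Csf1 and Tnfrsf1a were higher, where the background is 2.23% of all genes, and Inhba was lower, where it is 1.89%. These 3 of 30 stand beside 4.12% over all genes in either direction. The mice of the groups did not overlap for Tnfrsf1a, higher, and Inhba, lower, against a background of 0.956% and 1.27%, or 2.22% in either direction. With Xist as a covariate 5 members were higher and 1 lower at an unadjusted p under 0.05, where the shares of all genes are 4.71% and 2.68%. The higher ones were Csf1, Cxcl16, Mif, Plau and Tgfb1, and the lower one was Ccl5. Tnfrsf1a and Inhba were not among them (edgeR's quasi-likelihood test, unadjusted p = 0.0629 and 0.109). With the endothelial marker sum as a covariate, described further on, all 3 calls were lost (edgeR's quasi-likelihood test, unadjusted p = 0.2002 for Csf1, 0.338 for Tnfrsf1a and 0.530 for Inhba). The log2 fold changes were then 0.37 (standard error 0.26), 0.16 (standard error 0.16) and -0.38 (standard error 0.59) in that order. This sum did not overlap between the groups, so the fit separates it poorly from the group. Tnfrsf1a and Inhba kept an unadjusted p under 0.05 with the leukocyte, stromal or acinar sum as a covariate. Csf1 kept it with the leukocyte and stromal sums but not with the acinar sum. The median over the members was -0.13 without M149, with 10 members above 0, and 0.29 without M146, with 23 above 0. For those fits the share of all genes above 0 was not worked out.

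**Figure D1:**
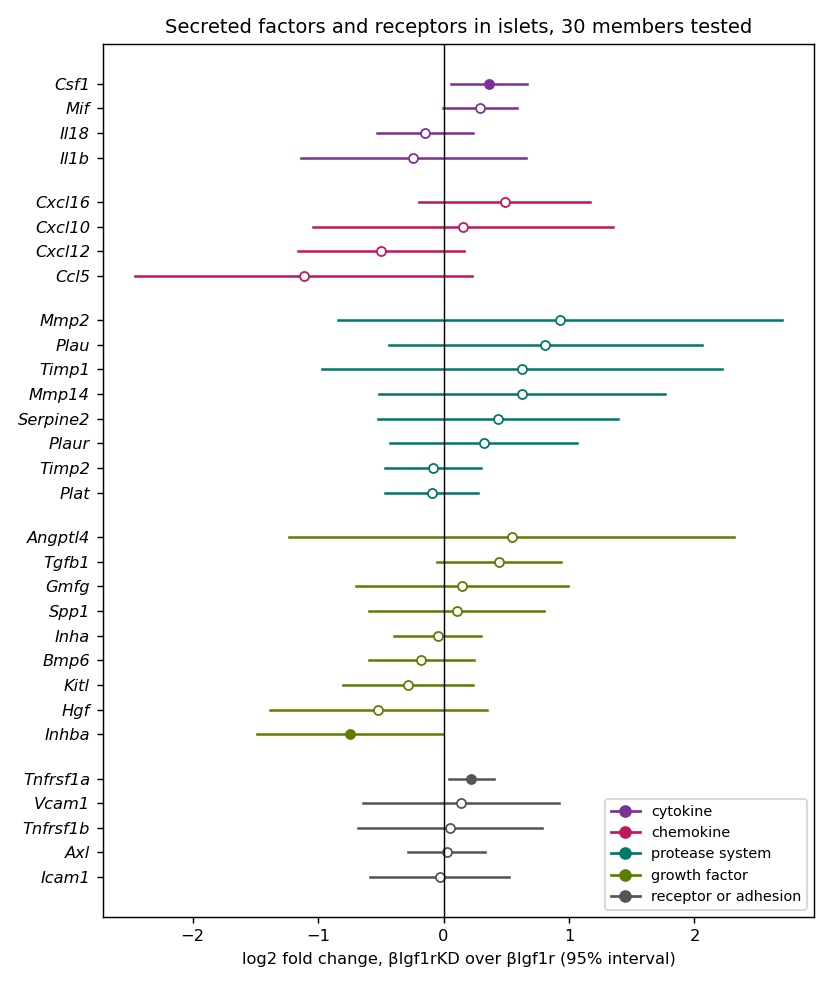
Log2 fold change of βIgf1rKD over βIgf1r islets (x axis) for the 30 tested members, grouped by role, with the 95% interval from edgeR's quasi-likelihood fit as a line and a filled point where the unadjusted p was under 0.05. The filled points are Csf1 and Tnfrsf1a on the right and Inhba on the left, and every other interval spans 0.

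Cytokines were represented by 4 tested genes, and Csf1 was the one that differed at an unadjusted p. Csf1 (ENSMUSG00000014599, chromosome 3, 107741048 to 107760469, minus strand of GRCm38, in GENCODE M21) encodes the growth factor on which macrophages depend. It was at 14.2, 13.4, 14.6 and 13.6 CPM in βIgf1r mice M148, M151, M152 and M153, and at 22.2, 17.1, 18.7 and 13.8 CPM in βIgf1rKD mice M145, M146, M149 and M150. The βIgf1r mice lay close together, and of the βIgf1rKD mice all but M150 were above them. The log2 fold change was 0.36 (standard error 0.14; 95% interval 0.06 to 0.66; edgeR's quasi-likelihood test, unadjusted p = 0.0250, adjusted p = 0.987; exact permutation test of log2 CPM, p = 0.0857). By the edgeR test the unadjusted p was 0.0533 without M149, 0.0550 without M151, 0.0554 without M153 and 0.0733 without M145.

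Mif, macrophage migration inhibitory factor, was per kilobase of exon the most abundant of all 49 genes, at a mean level of 33.8 RPKM. It was at 20.8 to 24.8 CPM in βIgf1r mice and at 28.7, 24.8, 34.5 and 22.9 CPM in M145, M146, M149 and M150. The groups overlapped, and the log2 fold change was 0.29 (standard error 0.13; edgeR's quasi-likelihood test, unadjusted p = 0.0526, adjusted p = 0.987). It was 0.17 without M149 and 0.39 with Xist as a covariate (edgeR's quasi-likelihood test, unadjusted p = 0.00754). The unadjusted p was also under 0.05 by DESeq2, with no filter on low counts, and with the endothelial or stromal sum as a covariate. It was above 0.05 by limma-voom and with the leukocyte or acinar sum as a covariate. The inflammasome products Il1b and Il18 had negative log2 fold changes, of -0.24 (standard error 0.40) and -0.15 (standard error 0.17), each within its error. Il1b was at 0.24 (standard error 0.33) with Xist and at 0.60 (standard error 0.77) with the endothelial sum as a covariate. Il18 was at 0.02 (standard error 0.32) with the endothelial sum, so the signs depend on the fit. Il1b ranged from 1.05 to 3.32 CPM in βIgf1r mice, with M152 and M153 high and M148 and M151 low, and from 1.46 to 2.61 CPM in βIgf1rKD mice. Its level rested on 29 to 82 counts per mouse.

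The other 6 cytokines did not pass the filter, and they include the best known factors of the phenotype. Il6 had 0 or 1 count in every mouse. Il1a had 1 to 7 counts in βIgf1r and 0 to 2 in βIgf1rKD mice, with 7 in M151 alone, and Tnf had 0 to 8 and 2 to 7. Il15, which sustains natural killer and memory T cells, had 4 to 11 and 3 to 8 counts. Lif, an IL-6 family cytokine, had 2 to 8 counts in βIgf1r mice and 11, 5, 22 and 12 counts in M145, M146, M149 and M150. Csf2 had 0 counts in all 8 libraries, which together allow a level of up to 0.0133 CPM (3 counts of 226261362, counting error only). The counts of these genes were low, and the size of difference that could have been seen at this depth was not worked out.

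Chemokines were sparser still, and 4 of 13 could be tested. Cxcl12, the ligand of CXCR4 that stromal and endothelial cells secrete, was at 11.2, 16.0, 9.93 and 7.25 CPM in M148, M151, M152 and M153 and at 10.2, 4.32, 9.79 and 7.40 CPM in M145, M146, M149 and M150. Only M146 lay below the βIgf1r range, and the log2 fold change of -0.50 (standard error 0.29) did not pass the test (edgeR's quasi-likelihood test, unadjusted p = 0.126, adjusted p = 0.987). It was -0.27 without M151, the highest mouse, and -0.29 without M146, the lowest. Beside it, 11 of 11 tested endothelial markers had a negative log2 fold change, 6 of them at an unadjusted p under 0.05, and their summed level was 494.9 to 619.7 CPM in βIgf1r and 439.2 to 493.6 CPM in βIgf1rKD mice. The slope of Cxcl12 on the endothelial sum within the groups was -1.30 (standard error 1.44; edgeR's quasi-likelihood test, unadjusted p = 0.393).

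Cxcl16, a membrane-anchored chemokine of macrophages and other antigen-presenting cells, was set by 1 library. It was at 5.21 to 6.94 CPM in the βIgf1r mice and at 7.25, 5.21 and 7.05 CPM in M145, M146 and M150, against 15.7 CPM in M149. The log2 fold change was 0.49 (standard error 0.30) over all mice and 0.06 (standard error 0.16) without M149. Ccl5, which attracts T cells, was set by a βIgf1r library. M151 had 66 counts, or 2.40 CPM, and the other 7 mice 8 to 19 counts, between 0.286 and 0.616 CPM. Its log2 fold change of -1.12 (standard error 0.60), the largest in size among the tested members, was -0.14 without M151. Cxcl10, an interferon-induced chemokine, spread over 0.332 to 1.31 CPM in βIgf1r and 0.393 to 1.68 CPM in βIgf1rKD mice, and its log2 fold change of 0.16 (standard error 0.53) was within its error.

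The neutrophil chemokines Cxcl1, Cxcl2 and Cxcl5 had at most 10 counts in any mouse. The monocyte chemokines Ccl2, Ccl7 and Ccl8 reached 18, 9 and 22 counts in M149, and in M146, the lowest βIgf1rKD mouse, 0, 0 and 5. Ccl8 was highest in the βIgf1r mouse M151, at 30 counts. The macrophage inflammatory proteins Ccl3 and Ccl4 ranged from 1 to 23 and from 1 to 13 counts, each highest in M150, the deepest library. Ccl20 was counted in M148 and M151 only, with 1 and 4 counts. These 9 chemokines were below the filter. In a fit with no filter on low counts, which tested 48 members, edgeR gave none of the 18 members added an unadjusted p under 0.05, a threshold that 3.96% of all genes passed.

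**Figure D2:**
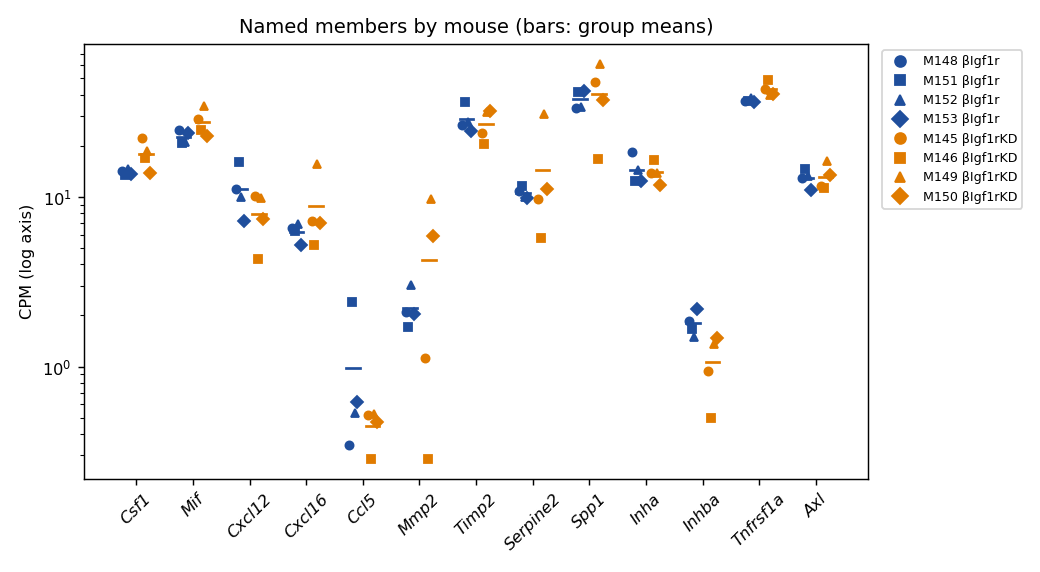
Level of the 13 members given with their own statistics in each mouse (y axis, CPM on a log scale), βIgf1r mice in blue and βIgf1rKD mice in orange, with horizontal bars at the group means. Tnfrsf1a and Inhba are the 2 genes whose groups do not overlap, and Mmp2 spans from 0.286 CPM in M146 to 9.66 CPM in M149 within the βIgf1rKD group.

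The protease system passed the filter for 8 of 10 genes, 6 of them above and 2 below 0, with a median log2 fold change of 0.53. That median was the largest of the roles in this fit, but its size depended on the fit. By limma-voom it was 0.07, below those of cytokines (0.09) and receptors (0.11). With the acinar marker sum as a covariate it was 0.07, below that of cytokines (0.11), and with the leukocyte sum it was -0.39. It was 0.63 with Xist as a covariate and 1.11 with the endothelial sum, which is poorly separated from the group. In both of those fits it was the largest of the roles. None of the 8 had an unadjusted p under 0.05 in the fit without a covariate. The common feature was the spread within the βIgf1rKD group rather than a shift of it. Mmp2, the gelatinase that stromal cells secrete, was at 2.10, 1.71, 3.03 and 2.04 CPM in M148, M151, M152 and M153 and at 1.12, 0.286, 9.66 and 5.85 CPM in M145, M146, M149 and M150. No βIgf1rKD mouse lay within the βIgf1r range: M145 and M146 were below it and M149 and M150 above it. The log2 fold change was 0.93 (standard error 0.79; 95% interval -0.84 to 2.70; edgeR's quasi-likelihood test, unadjusted p = 0.267, adjusted p = 0.987; exact permutation test of log2 CPM, p = 1.0). It was 0.16 without M149, 1.32 without M146 and 0.03 by limma-voom.

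Mmp14, the membrane-bound metalloproteinase that activates pro-MMP2, was split in the same way. It was at 3.32 to 4.95 CPM in βIgf1r mice and at 2.34 and 2.57 CPM in M145 and M146 but 13.9 and 7.28 CPM in M149 and M150. Timp1, an inhibitor of metalloproteinases, was at 0.291 to 0.616 CPM in βIgf1r mice and at 0.187, 0.179, 2.09 and 0.715 CPM in the same βIgf1rKD mice. Serpine2, an inhibitor of thrombin and plasminogen activators, was at 9.81 to 11.7 CPM in βIgf1r mice and at 9.78, 5.71, 30.7 and 11.1 CPM in M145, M146, M149 and M150. Its log2 fold change was 0.44 (standard error 0.43) over all mice and -0.25 (standard error 0.21) without M149. Plau, the urokinase plasminogen activator, was at 0.995 to 1.82 CPM in βIgf1r mice and at 6.01 CPM in M149 against 1.08 to 1.48 CPM in the other βIgf1rKD mice. The deposited values of Plau were not whole numbers, to within 0.01, in any of the 8 mice and those of Serpine2 in 5, so that these counts are less certain. Mmp14, Timp1 and Plau are named because of their values. Their log2 fold changes were 0.62, 0.63 and 0.81 over all mice, -0.04, -0.41 and -0.15 without M149, and 0.89, 0.96 and 1.04 without M146.

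The other tested genes of the system varied less. Timp2, the most abundant inhibitor among the members at 7.15 RPKM, was at 24.5 to 36.2 CPM in βIgf1r and 20.6 to 32.2 CPM in βIgf1rKD mice, a log2 fold change of -0.08 (standard error 0.17). An annotated gene, Cep295nl, overlaps Timp2 on the same strand. Plat, the tissue plasminogen activator, and Plaur, the urokinase receptor, had log2 fold changes of -0.09 (standard error 0.17) and 0.32 (standard error 0.33). Below the filter, Mmp3 had 0 to 3 counts in βIgf1r mice and 3, 0, 6 and 21 counts in M145, M146, M149 and M150, and Mmp9, a gelatinase of neutrophils and macrophages, 3 to 14 and 5 to 15 counts.

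Among the 9 tested growth factors, Inhba was the one lower at an unadjusted p. Inhba (ENSMUSG00000041324, chromosome 13, 16011851 to 16031621, plus strand of GRCm38) encodes the βA subunit, of which 2 copies form activin A. It was at 1.86, 1.67, 1.495 and 2.18 CPM in M148, M151, M152 and M153 and at 0.936, 0.4999 and 1.35 CPM in M145, M146 and M149, with M150 at 1.48 CPM. Each βIgf1rKD mouse had less than any βIgf1r mouse, although M150 and M152 nearly met. The log2 fold change was -0.75 (standard error 0.33; 95% interval -1.49 to -0.01; edgeR's quasi-likelihood test, unadjusted p = 0.0485, adjusted p = 0.987; exact permutation test of log2 CPM, p = 0.0286, the smallest that 4 mice against 4 allow). The gene rested on 14 to 70 counts per mouse, its deposited values were not whole numbers in 5 mice, and a pair of annotated genes overlap it on the opposite strand. Leaving out any 1 mouse other than M149 or M150 took its unadjusted p to between 0.0528 and 0.116. Inha, which encodes the α subunit that pairs with a β subunit to form inhibin, was more abundant, at 12.4 to 18.5 CPM in βIgf1r and 11.7 to 16.5 CPM in βIgf1rKD mice. Its groups overlapped, and the log2 fold change was -0.05 (standard error 0.15).

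Spp1, osteopontin, was after Mif the most abundant member per length, at 23.8 RPKM. It was at 33.6 to 41.9 CPM in βIgf1r mice and at 47.4, 16.7, 61.0 and 37.2 CPM in M145, M146, M149 and M150, so that the highest and the lowest value of all mice were both in the βIgf1rKD group. The log2 fold change was 0.10 (standard error 0.31), and -0.16 without M149. Tgfb1 was higher in M149, at 10.4 CPM, than in the other 7 mice, at 4.31 to 5.998 CPM, and its log2 fold change was 0.44 (standard error 0.22; edgeR's quasi-likelihood test, unadjusted p = 0.0748) over all mice and 0.17 without M149. Its deposited values were not whole numbers in 7 mice. Hgf, the ligand of Met, and Kitl, the ligand of Kit, had log2 fold changes of -0.52 (standard error 0.39) and -0.28 (standard error 0.23), and Hgf was highest in M151 at 3.71 CPM against 0.928 to 1.75 CPM in the other mice. Bmp6, Gmfg and Angptl4 were within their errors, at -0.18, 0.15 and 0.54. The EGF receptor ligands Areg, with 1 to 12 counts, and Ereg, with 0 or 1, did not pass the filter.

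All 5 receptors and adhesion molecules could be tested. Tnfrsf1a (ENSMUSG00000030341, chromosome 6, 125349362 to 125362484, plus strand of GRCm38) encodes TNF receptor 1, which signals to NF-κB and to cell death. It was at 36.8, 36.7, 38.4 and 36.4 CPM in M148, M151, M152 and M153 and at 43.3, 49.1, 39.9 and 40.5 CPM in M145, M146, M149 and M150. Each βIgf1rKD mouse lay above every βIgf1r mouse, and the step was 0.22 on the log2 scale (standard error 0.08; 95% interval 0.04 to 0.40; edgeR's quasi-likelihood test, unadjusted p = 0.0211, adjusted p = 0.987; exact permutation test of log2 CPM, p = 0.0286). Without M146, the highest mouse, the unadjusted p was 0.0560 by the edgeR test. At 15.5 RPKM it was the third most abundant member per length, above TNF receptor 2, Tnfrsf1b, at 0.913 RPKM, while the ligand Tnf was below the filter. Tnfrsf1b, Icam1, Vcam1 and Axl had log2 fold changes of 0.05, -0.03, 0.14 and 0.02, with standard errors of 0.14 to 0.35. Axl, a receptor tyrosine kinase for Gas6 on macrophages and stromal cells, was at 11.04 to 14.5 CPM in βIgf1r and 11.3 to 16.3 CPM in βIgf1rKD mice.

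Set side by side, cytokines and chemokines passed the filter for 8 of 23 genes and proteases and growth factors for 17 of 21. The tested cytokines and chemokines divided into 4 above and 4 below 0, with a median log2 fold change of 0.00, and the proteases and growth factors into 10 above and 7 below, with a median of 0.15. Without M149 these medians were -0.06 and -0.15. By role, the medians were 0.07 for cytokines, -0.17 for chemokines, 0.53 for the protease system, -0.05 for growth factors and 0.05 for receptors and adhesion molecules, and without M149 they were 0.00, -0.28, -0.13, -0.16 and -0.09. Without M146 they were 0.09, 0.05, 0.70, 0.08 and 0.15 in the same order. No test was made between the roles.

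The roles differed more in their spread. For 23 of the 30 members, or 76.7%, log2 CPM had a larger SD among the βIgf1rKD than among the βIgf1r mice, as did 51.8% of all genes tested. In the protease system this held for 7 of 8, and the median SD was 0.26 in βIgf1r and 1.07 in βIgf1rKD mice. The median SD was 0.62 in both groups for the 4 chemokines and 0.27 and 0.45 for the 9 growth factors. The SD was larger in βIgf1rKD mice for 5 of 5 receptors and adhesion molecules, with medians of 0.32 and 0.38, and for 2 of 4 cytokines, with medians of 0.19 and 0.27. Averaged over the 8 protease genes and centred on the 8 mice, log2 CPM was -0.57, -0.83, 1.23 and 0.40 in M145, M146, M149 and M150 but within -0.16 and 0.01 in the βIgf1r mice. For chemokines the highest average, 0.87, was in the βIgf1r mouse M151 and the lowest, -0.76, in M146.

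**Figure D3:**
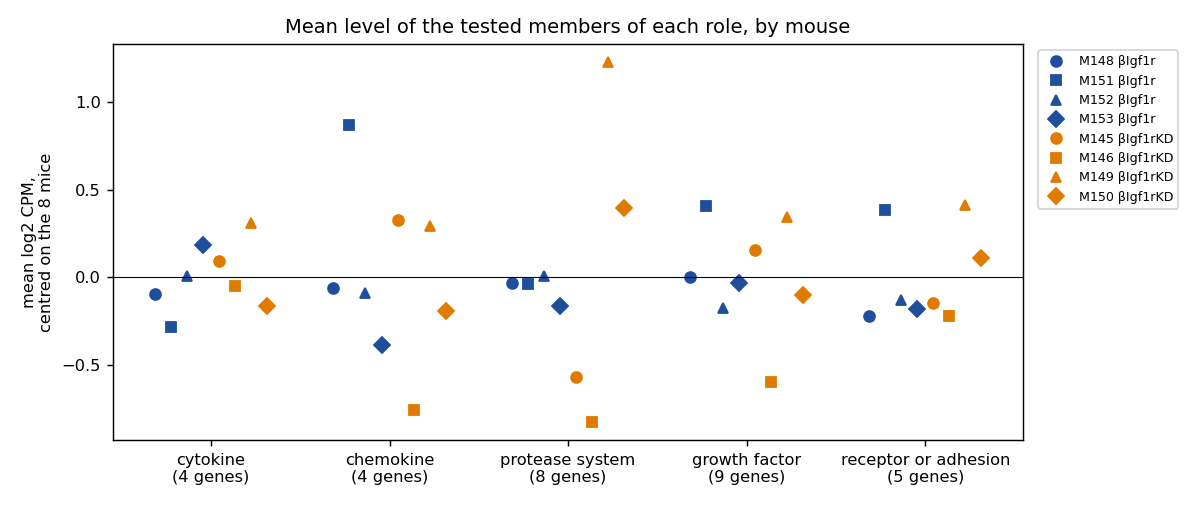
Mean log2 CPM of the tested members of each role in each mouse (y axis), each gene centred on its mean over the 8 mice, with βIgf1r mice in blue and βIgf1rKD mice in orange. The βIgf1r mice lie within -0.16 and 0.01 for the protease system, whereas M149 is at 1.23 and M146 at -0.83.

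The members were then set against the RNA of other cells of the islet preparation. For each mouse the CPM of marker genes was summed, and the slope of every gene's log2 level on the log2 of that sum was fitted beside the group, a slope of 1 meaning a proportional change. Stromal markers, 12 genes of fibroblasts and pericytes such as Col1a1, Dcn and Pdgfrb, summed to 211.6 to 242.6 CPM in βIgf1r mice and to 167.8, 119.96, 377.1 and 247.9 CPM in M145, M146, M149 and M150. Among the βIgf1rKD mice the order was that of the averaged protease genes. Among the βIgf1r mice it was not, and M152 had the lowest sum, 211.6 CPM, with the highest protease average, 0.01. None of these 12 markers was at 0 in any mouse, and 5 had a log2 fold change above 0 and 7 below. Serpine2, with a slope of 1.38 (standard error 0.16; edgeR's quasi-likelihood test, adjusted p = 0.0158), and Mmp14, with a slope of 1.61 (standard error 0.24; adjusted p = 0.0393), rose with the stromal markers, as did 0.317% of all genes. Of all genes 0.0388% had a negative slope at that threshold, and 0 members did. Mmp2, with a slope of 2.92 (standard error 0.48), and Timp1, with one of 2.24 (standard error 0.43), did not pass the same edgeR test (adjusted p = 0.0532 and 0.0892).

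At an unadjusted p under 0.05, 12 of the 30 members had a positive slope on the stromal sum, against 5.6% of all genes. Beside the 4 above they were Plau, Cxcl16, Spp1, Inhba, Vcam1, Tnfrsf1b, Timp2 and Axl. Tnfrsf1a was the 1 member with a negative slope at that threshold, -0.18 (standard error 0.07). The share of all genes with a negative slope at that threshold was not worked out. The adjusted calls rest on M146 and M149, whose stromal sums were the lowest and the highest: without either of them 0 members passed. Without M149, 7 members had a positive slope at an unadjusted p, and the share of all genes in that fit was not worked out. The slope of Serpine2 was 0.91 (edgeR's quasi-likelihood test, adjusted p = 0.518) without M149 and 1.44 (adjusted p = 0.336) without M146, and it passed without any 1 of the other mice. Mmp14 did not pass when any 1 of the 8 mice was left out, with slopes of 1.46 to 2.11 and adjusted p from 0.0528 to 0.646. With the stromal sum as a covariate the group difference of Serpine2 was 0.34 (standard error 0.14; unadjusted p = 0.0455) and that of Cxcl16 0.48 (standard error 0.17; unadjusted p = 0.0222), by edgeR's quasi-likelihood test. In that fit Csf1, Mif, Tgfb1 and Tnfrsf1a were also higher at an unadjusted p under 0.05, and Inhba was lower. The shares of all genes were 2.66% higher and 2.12% lower.

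**Figure D4:**
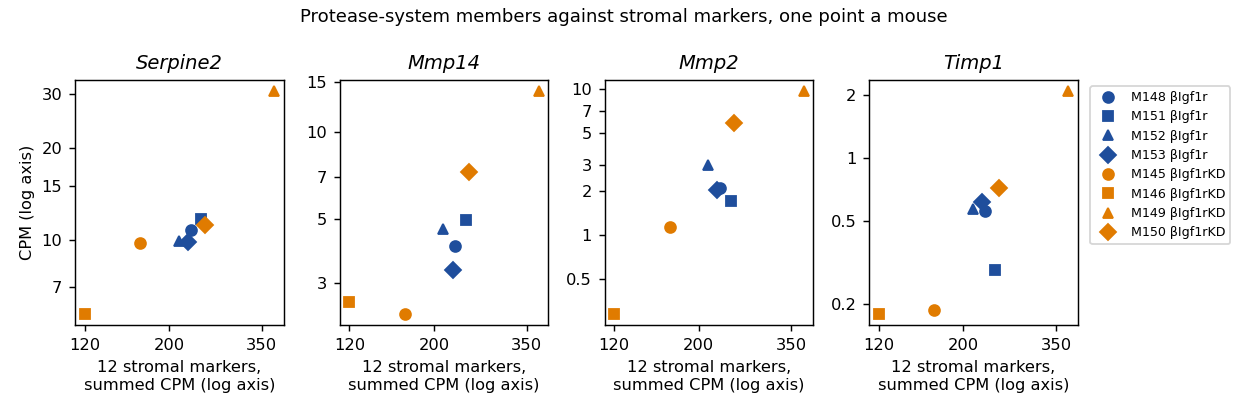
CPM of Serpine2, Mmp14, Mmp2 and Timp1 (y axes, log scale) against the summed CPM of 12 stromal markers (x axes, log scale), with 1 point per mouse. M146 lies at the lower left and M149 at the upper right of each panel, and the 4 βIgf1r mice lie close together between 211.6 and 242.6 CPM of stromal markers.

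Leukocyte markers, 15 genes led by those of macrophages, summed to 157.0 to 240.4 CPM in βIgf1r and to 187.0, 181.7, 364.4 and 252.7 CPM in M145, M146, M149 and M150 (exact two-sided permutation test of the log2 sum, p = 0.171). Of the 14 tested 12 had a log2 fold change above 0, 5 of them at an unadjusted p under 0.05, and none was at 0 in any mouse. In the fit over all genes 0 members passed the adjusted test, as 0% of all genes did. At an unadjusted p, 12 of the 30 members had a positive slope on this sum, against 4.87% of all genes. Mmp14 had the smallest p, with a slope of 2.09 (standard error 0.37; edgeR's quasi-likelihood test, unadjusted p = 0.000378, adjusted p = 0.265). Tnfrsf1b, Icam1 and Vcam1, which leukocytes and activated endothelium carry, had slopes of 1.21, 0.86 and 1.18. Without M149, 7 members had a positive slope on the leukocyte sum at an unadjusted p, again with no share of all genes worked out. Without M151 Mmp14 passed the adjusted test, beside 0.0832% of all genes. With the leukocyte sum as a covariate 8 members lay above and 22 below 0, and the median log2 fold change of all members was -0.28. The share of all genes above 0 in that fit was not worked out. M149 had the most leukocyte as well as the most stromal RNA, so that these sums cannot be told apart in it.

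For the endothelial and the acinar markers 0 members passed the adjusted test, against 0.00646% and 1.08% of all genes that rose with them. At an unadjusted p Timp1 had a positive slope on the endothelial and Il1b on the acinar sum, against 1.67% and 3.89% of all genes. Ccl5, Hgf and Gmfg had negative slopes on the endothelial sum, for which the share of all genes was not worked out. The associations of Ccl5 and Hgf rest on M151, the mouse in which both were highest, and without M151 0 members had a negative slope on the endothelial sum at an unadjusted p under 0.05.

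Receptors and inhibitors of the members, from lists written for this comparison, showed few differences. Of 22 tested receptors and inhibitors of cytokines 0 had an unadjusted p under 0.05, with 12 above and 10 below 0. Il1r1, the receptor of IL-1α and IL-1β, named here because of its level, was at 443.1 to 539.4 CPM in βIgf1r and 416.6 to 569.8 CPM in βIgf1rKD mice, and its log2 fold change was -0.06 (standard error 0.14). Of 7 tested chemokine receptors Ackr1, an atypical receptor that binds chemokines on venular endothelium, was lower in each βIgf1rKD mouse, at 0.0357 to 0.281 CPM against 0.427 to 0.909 CPM (log2 fold change -1.65, standard error 0.49; edgeR's quasi-likelihood test, unadjusted p = 0.00715, adjusted p = 0.987). The endothelial markers were lower in the same mice. Among 14 tested proteases and inhibitors beyond the members 0 had an unadjusted p under 0.05. Of 20 tested growth factor receptors Tgfbr3, the co-receptor that binds TGF-β and inhibin, was at 15.1 to 18.6 CPM in βIgf1r and 11.97 to 15.2 CPM in βIgf1rKD mice. Its log2 fold change was -0.30 (standard error 0.11; edgeR's quasi-likelihood test, unadjusted p = 0.0199, adjusted p = 0.987), and the unadjusted p was 0.0593 without M151 and 0.0525 without M149.

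Regulators upstream of the phenotype were examined last. Of 39 tested genes of NF-κB and inflammasome signalling 29 had a log2 fold change above and 10 below 0, with a median of 0.16, beside 52.3% above 0 and a median of 0.01 over all genes, and 5 were higher at an unadjusted p under 0.05, beside a background of 2.23%. By limma-voom none of these 5 had an unadjusted p under 0.05 (0.0506 to 0.118), while by DESeq2 each did, and with the endothelial sum as a covariate in edgeR none did. After adjustment over all genes 0 had p under 0.05. Relb, the subunit of the alternative NF-κB pathway, was at 3.91, 4.51, 5.48 and 3.84 CPM in M148, M151, M152 and M153 and at 16.2, 5.28, 11.7 and 4.19 CPM in M145, M146, M149 and M150. Its partner Nfkb2 was at 6.49 to 9.86 CPM in βIgf1r mice and at 18.5, 10.5, 17.8 and 7.67 CPM in the βIgf1rKD mice in the same order. For both genes M145 and M149 were high while M150 lay within the βIgf1r range. The log2 fold changes were 1.06 (standard error 0.39) and 0.74 (standard error 0.29), with unadjusted p = 0.0232 and 0.0276 by edgeR's quasi-likelihood test (adjusted p = 0.987). Without M145, M148, M149 or M153 in turn neither had an unadjusted p under 0.05, with values of 0.0562 to 0.0824 for Relb and 0.0734 to 0.0853 for Nfkb2.

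Tnip1, an inhibitor of NF-κB signalling, Myd88, the adaptor of the IL-1 and Toll-like receptors, and Socs3, an inhibitor of cytokine signalling through STAT3, had log2 fold changes of 0.37, 0.23 and 0.65 with standard errors of 0.16, 0.09 and 0.28. Each of the 3 had an unadjusted p above 0.05 in at least 5 of the 8 fits that left out 1 mouse. Tnip1 was at 0.23 without M149, and Socs3 at 0.30 without M145 and at 0.03 with the endothelial sum as a covariate. Socs3 was highest in M145 at 14.4 CPM, against 4.73 to 8.82 CPM in the other 7 mice. Csf1 was also highest in M145 and among the βIgf1rKD mice lowest in M150. A link between the levels of these genes was not tested. M145 and M149 also had the most acinar RNA, 160320 and 185610 CPM, beside 33154 and 107320 CPM in M146 and M150. The βIgf1r mouse M152 had 151440 CPM of acinar RNA, close to M145, with Relb at 5.48 CPM and Nfkb2 at 9.50 CPM. With the acinar sum as a covariate the log2 fold changes of Relb and Nfkb2 were 0.69 (standard error 0.42; unadjusted p = 0.139) and 0.54 (standard error 0.31; unadjusted p = 0.120) by edgeR's quasi-likelihood test, and that of Csf1 was 0.31 (standard error 0.16; unadjusted p = 0.0817). The part of acinar RNA in these genes was not tested beyond this fit.

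**Figure D5:**
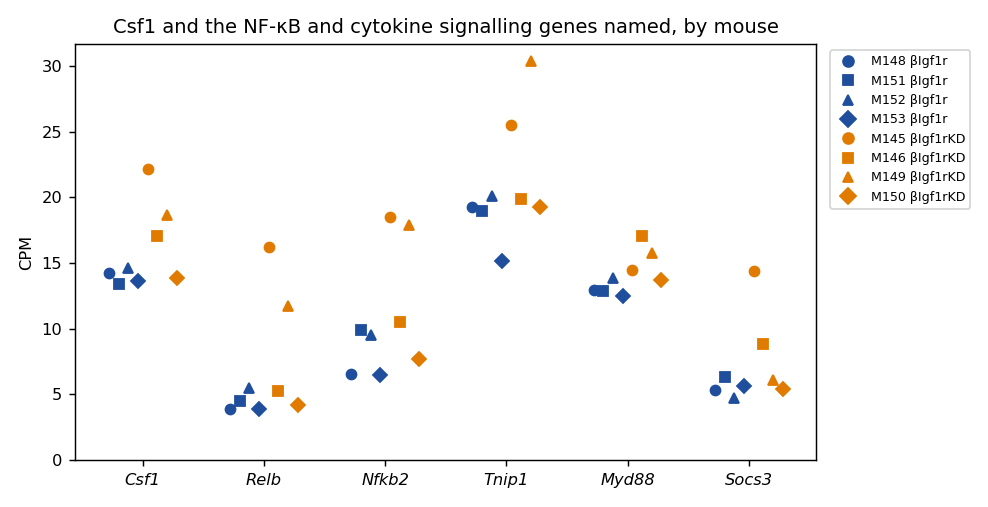
CPM (y axis, from 0) of Csf1, Relb, Nfkb2, Tnip1, Myd88 and Socs3 in each mouse, βIgf1r in blue and βIgf1rKD in orange. M145 is highest for Csf1, Relb, Nfkb2 and Socs3, and M150 lies within the βIgf1r range for each gene shown.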

How the data were processed

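RNA-seq values of 8 islet samples, 4 CTRL (βIgf1r) and 4 KD (βIgf1rKD) mice, were grouped by the sample labels. The authors deposited 1 estimated count per Ensembl gene and mouse, not normalized, from stranded mRNA libraries. The submitters' processing notes name fastp, kallisto and GRCm38, and versions and annotation are not given in the sources used here. Of 53012 identifiers 51906 matched a symbol, and coordinates are from GENCODE M21 on GRCm38.

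Counts were rounded, filtered with edgeR 4.0.16 (at least 10 counts, scaled to library size, in 4 mice, and 15 in total), which kept 15474 genes, and scaled by TMM. The test was edgeR's quasi-likelihood test in R 4.3.3, with Benjamini-Hochberg adjustment over all genes tested. Standard errors and 95% intervals were derived from the F statistic. CPM used TMM factors, log2 CPM a prior count of 2, and RPKM the summed exon length. Single values were compared by exact two-sided permutation tests over 70 assignments. Slopes on the log2 summed CPM of marker genes were fitted beside the group in the same test. Total counts were 21633925 to 42391106, where 1 count equals 0.0247 to 0.0474 CPM, and the upper limit given for Csf2 covers counting error only.

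The members and lists were chosen with earlier results of these data known. Members given in full were those with an unadjusted p under 0.05 or without overlap, and in each role the 2 with the highest mean CPM and the one with the largest change. Of partner lists up to 5 genes with p under 0.05 were named, and Igf1r. Others are named because of their values or to account for every member. P-values measure the spread between mice. Alternatives were DESeq2 1.42.0, limma-voom (limma 3.58.1), size factors by RLE, other filters, a prior count of 0.5, marker sums or Xist as covariates, mean z-scores of markers and each mouse left out, which for the slopes was chosen after seeing the data. Scripts were tested on simulated data. Promoters are from RefSeq. Python 3.11.15 with matplotlib 3.10.9 made the plots.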

Additional observations from a re-analysis of the deposited data

Results flagged for a closer look

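In the 60 sets of 4 mice (30 tested members in each group), 2 sets held a mouse that stood apart, while about 1 in 20 sets would by chance. Both concern the βIgf1r mouse M151. For Timp1 its log2 CPM was -1.47, against -0.67 to -0.54 in the other βIgf1r mice, and the gap to the nearest of them took up 0.8645 of the group's range. For Vcam1 its log2 CPM was 2.33, against 1.17 to 1.35, and the gap took up 0.8462 of the range. Gaps were counted above Dixon's 95% critical value.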

How the results depend on the processing

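No paired analysis was possible because no mouse number occurs in both groups. No member had an adjusted p under 0.05 under any alternative run. DESeq2 called 8 genes of all and limma-voom 1. Without a filter on low counts 1098 genes had an unadjusted p under 0.05, 31 members lay above 0, and the medians were 0.29 for cytokines and 0.26 for cytokines and chemokines. With leukocyte markers as a covariate 4 members were lower at an unadjusted p, beside 2.19% of all genes. Then 8 members lay above and 22 below 0, with no share of all genes worked out. The medians were then -0.28 for all members, -0.39 for the protease system, -0.31 for receptors and -0.33 for proteases and growth factors. Of the members given in full, Cxcl16 (-0.034), Serpine2 (-0.45), Mmp2 (-0.96), Spp1 (-0.26), Inha (0.060) and Axl (-0.18) then changed sign. With endothelial markers 4 members (Mif, Plau, Tgfb1 and Timp1) were higher, beside 1.87% of all genes, and 2 (Ccl5 and Hgf) lower, beside 2.99%. Csf1, Tnfrsf1a and Inhba lost their calls. The medians were 0.48 for cytokines, -0.85 for chemokines, 0.19 for both together and 1.11 for the protease system. Of the genes given in full, Inha (0.31) and Igf1r (0.073) changed sign. Among the other members Il1b (0.60), Il18 (0.017), Cxcl10 (-0.85), Gmfg (-0.74), Tnfrsf1b (-0.31) and Vcam1 (-0.28) changed sign as well. With stromal markers 6 members were higher, beside 2.66% of all genes. With acinar markers 379 genes had an unadjusted p under 0.05, with 1 member higher, beside 1.35% of all genes. Of the members given in full, Spp1 (-0.27), Inha (0.064) and Axl (-0.0066) changed sign. With Xist the numbers were 1143 genes and 5 higher members, beside 4.71% of all genes. The cytokine median was then 0.31 and Igf1r was at 0.023. Spp1 was at -0.043 by limma-voom. With mean z-scores of markers 0 members had a positive and 1 a negative slope on the endothelial score at an unadjusted p, and 0 passed the adjusted test for the stromal score. The cause of these changes was not tested.

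With 1 mouse left out, 383 to 1114 genes had an unadjusted p under 0.05. Of the members 1 to 4 were higher, beside 1.2% to 4.11% of all genes, and 0 to 1 lower, beside 1.15% to 2.98%. Between 10 and 23 members lay above and 9 to 20 below 0. The share of all genes above 0 was not worked out for these fits or for the alternatives above. The log2 fold changes ranged from -0.18 to 0.047 for Timp2, -0.25 to 0.70 for Serpine2, -0.16 to 0.36 for Spp1, -0.14 to 0.10 for Inha and -0.093 to 0.090 for Axl. Members with a positive slope on a marker sum at an unadjusted p numbered 7 to 15 for leukocyte, 0 to 6 for endothelial, 7 to 14 for stromal and 0 to 2 for acinar markers, and those with a negative slope 0 to 4 for endothelial and 0 to 1 for stromal markers. At the adjusted p they numbered 0 to 1 for leukocyte and 0 to 3 for stromal markers, beside 0% to 0.0832% and 0% to 0.448% of all genes. For slopes at an unadjusted p, the share of all genes was worked out for positive slopes in the main fit only. Of the 49 members 19 had too few counts to be tested.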
